A study of Mus musculus with 16 samples.

Results

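The genes that encode the proteins of the cytosolic ribosome were followed in mouse pancreatic cancer cells with different levels of the membrane protein Ly6d. They were chosen by name among the protein-coding genes (Rpl, Rps, Rplp or Rpsa with the number and letter used for a ribosomal protein). This gave 80 of the 54532 genes listed, 49 of the large and 31 of the small subunit. The rule uses no measured value, but it was set with earlier results of these data known.

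The cells belong to the single line KPC1199, and RNA was sequenced after they had been sorted from pancreatic tumours grown at the orthotopic site. The groups were sorted cells with Ly6d overexpression against sorted WT cells, and cells with high against cells with low expression of Ly6d, with 2 libraries each. The first pair asks what forced Ly6d changes and the second what goes with the cells' own Ly6d level. The sources used here do not give the promoter that drives Ly6d, the sorting gates or the number of animals. The overexpression columns carry a library name found in the labels of overexpression tumours, while the labels of the sorted overexpression cells use another name (OE). Placing these columns with the sorted overexpression cells is therefore an inference that the names do not settle, and every overexpression result rests on it. Nothing in the labels says that libraries of a group come from separate tumours, so p-values measure the spread between these libraries, which may be technical.

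Each ribosome carries 1 copy of nearly every protein of both subunits, and the mRNAs of these proteins are among the most abundant of a growing cell. Most of them belong to the TOP class: their transcripts start in a run of pyrimidines, through which the kinase mTOR and the RNA-binding protein Larp1 adjust their translation and stability. Their mRNAs are short and have left many processed pseudogenes, nearly identical copies inserted elsewhere in the genome, to which reads can be assigned in place of the gene.

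RefSeq start-site windows (GRCm38.p6, 250 bases before and 50 after the start) were found for 60 of the 80 genes, 72 windows in all. The 5 shown here run 30 bases before and 20 after the annotated start. Capitals mark the longest run of C and T that overlaps the stretch between 15 bases before and 20 after it. They show long and short runs among genes described below, a run of 21 in Rpl7a (chr2:26910777-26910826, plus strand), runs of 9 to 10 in Rps6 (chr4:86857348-86857397, minus), Rplp2 (chr7:141447621-141447670, plus) and Rps27 (chr3:90213629-90213678, minus) and a run of 6 in Rps2 (chr17:24720033-24720082, plus). Shorter runs, not shown, were 5 in Rpl22, Rpl37a, Rps3 and Rpsa, 4 in Rps28 and Rps4x and 3 in Rpl10. Where a gene had more than 1 window, the window with the longest run was shown or listed. The Rpl7a window lies wholly inside the deposited gene model, which begins at 26910764.
Rpl7a: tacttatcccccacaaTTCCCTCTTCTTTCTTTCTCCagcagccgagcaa
Rps6: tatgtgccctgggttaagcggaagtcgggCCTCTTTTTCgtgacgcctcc
Rplp2: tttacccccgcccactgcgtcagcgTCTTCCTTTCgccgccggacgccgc
Rps27: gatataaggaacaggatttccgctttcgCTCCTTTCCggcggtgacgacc
Rps2: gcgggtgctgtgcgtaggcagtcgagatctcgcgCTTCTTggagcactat

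A run of at least 8 pyrimidines at the start was present in 44.4% of the 72 windows of ribosomal protein genes, against 19.0% of all 32851 windows. The ETS core CCGGAA, searched on both strands of the whole window, was present in 47.2% of ribosomal protein windows against 14.9% of all. The letters CCATNTT of the YY1 motif stood in 33.3% against 16.1%, and GGGCGG of the SP1 motif in 58.3% against 35.7%. The E-box CACGTG stood in 11.1% against 7.15%, CCAAT in 30.6% against 37.4%, and TATAA, 40 to 20 bases before the start on the gene's strand, in 4.17% against 3.32%. The pyrimidine run and TATAA were sought on the gene's strand alone, and matches to different motifs could overlap. These are matches of letters, not binding sites.

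Ly6d went with the group names, at 3380 and 3423 CPM in overexpression against 1260.0 and 1066 CPM in WT cells, and at 697 and 504 TPM in Ly6d-high against 1.56 and 0.352 TPM in Ly6d-low cells. CPM are counts scaled to 1 total for all libraries, and TPM are reads per length of gene scaled in the same way. Totals ran over 15449241 to 20509539 counts or reads per library. All 10 epithelial markers were above 0 in every library and summed to 13311 and 13965 CPM in overexpression against 12974 and 12600 CPM in WT, and to 40915 and 40419 TPM in Ly6d-high against 56572 and 57767 TPM in Ly6d-low cells. Of the 10, 2 were called higher and 4 lower in Ly6d-high cells, against 8.64% and 1.17% of all genes. In overexpression 0 were called higher and 1 lower, against 2.32% and 1.84% of all genes. Other cells' markers moved with the groups. The 12 acinar genes summed to 1418 and 1573 CPM in overexpression against 20163 and 20590.3 CPM in WT cells, and to 10738 and 10100.2 TPM in Ly6d-high against 4567 and 4616 TPM in Ly6d-low cells. The 9 macrophage genes summed to 229 and 236 CPM in overexpression against 80.2 and 81.9 CPM in WT, and to 206 and 197 TPM in Ly6d-high against 70.1 and 66.5 TPM in Ly6d-low cells, with Fcgr1 or Adgre1 at 0 in 3 WT or Ly6d-low libraries. The 8 B and plasma cell genes summed to 84.7 and 86.7 CPM in overexpression against 11.8 and 10.4 CPM in WT and to 95.8 and 83.4 TPM in Ly6d-high against 6.88 and 5.86 TPM in Ly6d-low cells, with Ms4a1, Mzb1 or Tnfrsf17 at 0 in every library. The 7 islet genes summed to 582 and 633 CPM in overexpression against 1373 and 1212 CPM in WT, and to 407 and 356 TPM in Ly6d-high against 760.3 and 717 TPM in Ly6d-low cells. The 9 neutrophil genes summed to 173 and 187 CPM in overexpression against 57.5 and 56.0 CPM in WT, and to 173 and 208 TPM in Ly6d-high against 67.9 and 70.3 TPM in Ly6d-low cells, with Camp at 0 in 5 of the 8 libraries. In Ly6d-high against Ly6d-low cells only 3 of the 9 were high enough to be tested. There S100a8, Retnlg, Ngp or Csf3r were also at 0 in some libraries. The pan-leukocyte gene Ptprc was at 10.7 and 10.3 CPM in overexpression against 1.82 and 1.55 CPM in WT, and was called higher. It was at only 0.0817 and 0.172 TPM in Ly6d-high against 0.0633 and 0.0429 TPM in Ly6d-low cells and was not tested there. The 6 endothelial genes summed to 123 and 139 CPM in overexpression against 252 and 253 CPM in WT, and 4 of them were called lower. Of 6 long-lived nuclear and mitochondrial RNAs used as a sign of RNA quality, 4 were called lower in Ly6d-high cells, and they summed to 12034 and 11077 TPM in Ly6d-high against 20800.3 and 21500.0 TPM in Ly6d-low cells. The part of these cells and of RNA quality in the ribosomal results between groups was not tested, and in bulk samples fewer cells of a type and less RNA per cell cannot be told apart.

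Ribosomal protein genes took 4.70% and 5.03% of all counts in overexpression and 4.86% and 4.17% in WT cells. The second WT library was the lowest of the 4, and the first lay between the 2 overexpression libraries, so the groups overlapped. In the other table they took 1.53% and 1.05% of reads in Ly6d-high and 1.82% and 1.68% in Ly6d-low cells. Here the groups stood apart, with the second Ly6d-high library far below the other 3. The tables were deposited in different units, but both shares are percents of all counts or recovered reads of a library. The tables share no library and no group, and the shares were not compared between them.

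The ratio of the subunits differed little between libraries. Large subunit genes had 1.65 and 1.61 times the counts of small subunit genes in overexpression and 1.599 and 1.607 times in WT cells, both WT libraries lying just below both overexpression libraries. The ratio was 1.88 and 2.04 in Ly6d-high and 1.94 and 1.97 in Ly6d-low cells, so that the Ly6d-low values lay between the Ly6d-high values. With 2 libraries a group, an exact permutation test cannot give a p below 0.333.

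**Figure D1:**
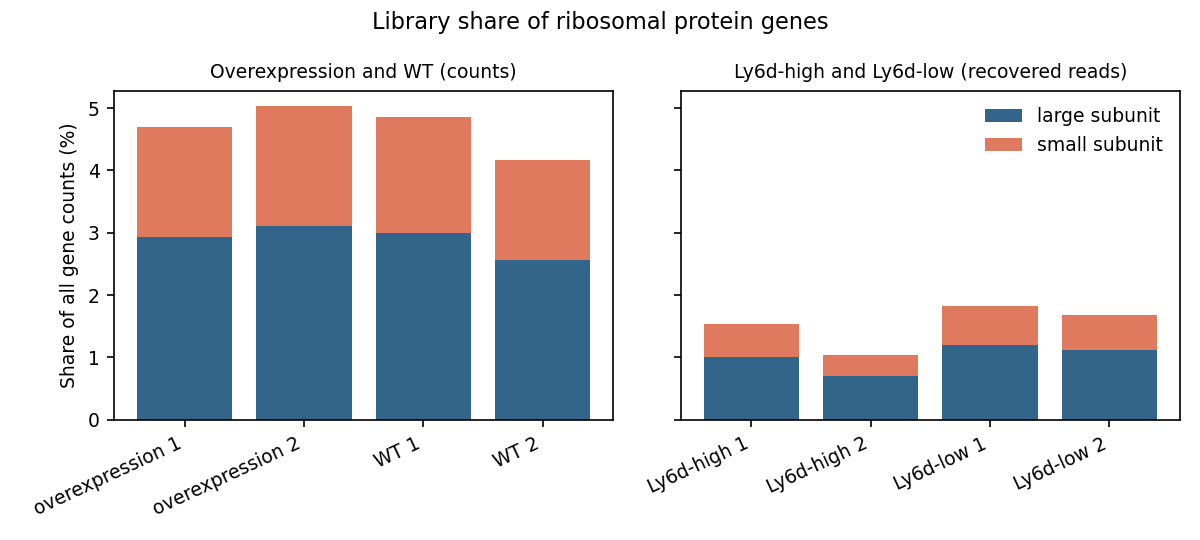
Share of all gene counts (%, left) or recovered reads (%, right) taken by ribosomal protein genes of the large and small subunit, 1 bar per library. The overexpression libraries reached 4.70% and 5.03% and WT 4.86% and 4.17%; Ly6d-high reached 1.53% and 1.05% and Ly6d-low 1.82% and 1.68%.

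Per kilobase of gene model, the stalk proteins Rplp1 and Rplp0 led. Rplp1, which binds elongation factors at the stalk, stood at 1841 and 1948 CPM per kilobase in overexpression against 1943 and 1694 in WT cells. Rplp0, which anchors the stalk, stood second in that table and first in the other, at 2235 and 1968 TPM in Ly6d-high against 2657 and 2641 TPM in Ly6d-low cells. Rplp1 was only the 15th in that table, at 461 and 258 TPM in Ly6d-high against 411 and 365 TPM in Ly6d-low cells. Rplp2, the partner of Rplp1 at the stalk, had 192 and 212 CPM per kilobase in overexpression against 209 and 171 in WT cells, below the family median. Rps2, near the mRNA entry channel, stood next among the most abundant, at 1239 and 958 TPM in Ly6d-high against 1699 and 1558 TPM in Ly6d-low cells. The median gene had 275 CPM per kilobase in the count table and 151 TPM in the other. The order of genes was shared in part between tables, with Spearman's rho 0.71 over the 77 genes tested, which share gene model lengths and annotation. Gene models include retained introns, which lower such levels for some genes.

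At the other end, the tissue-restricted paralogs Rpl3l, Rpl10l and Rpl39l were at or next to 0 and were not tested. Rpl10l, a testis paralog, had no count in any library. Rpl3l, a heart and skeletal muscle paralog, had 2 counts in the second WT library and none in the other 3 of that table. The 77 other genes passed the filter on low values in both comparisons.

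Under Ly6d overexpression the ribosomal protein genes stayed close to WT. Of the 77, 69 had a log2 fold change above 0 and 8 below, against 49.8% above and 50.2% below over all genes, but none was called higher and only Rpl17 was called lower (edgeR, Benjamini-Hochberg adjusted p under 0.05). Over all 15771 genes tested, 2.32% were called higher and 1.84% lower. The median log2 fold change was 0.11, 0.11 for large and 0.09 for small subunit genes, against -0.00 for all genes. DESeq2 likewise called none higher and 1 lower, and its share over all genes is not given here. At an unadjusted p under 0.05 there were 4 genes higher and 2 lower, a smaller share than the 17.3% of all genes at that threshold.

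The libraries of the 2 groups did not overlap in 24 of the 77 genes, 22 higher and 2 lower in overexpression. Over all genes 26.3% stood apart higher and 21.7% lower, so 22 of 77 is near the background and 2 of 77 below it. The 2 lower genes were Rpl17 and Rpl7a. The 22 included Rpl5 and Rpl11, which as free proteins bind the p53 ligase Mdm2.

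Rpl17, a protein at the exit tunnel, was at 93.0 and 97.5 CPM in overexpression against 167 and 152 CPM in WT cells. Both overexpression libraries were lower than both WT libraries. Its log2 fold change was -0.76 ± 0.08 (SE; edgeR, adjusted p = 0.000119). Its near-identical copy Rpl17-ps10 was called higher, as described below.

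**Figure D2:**
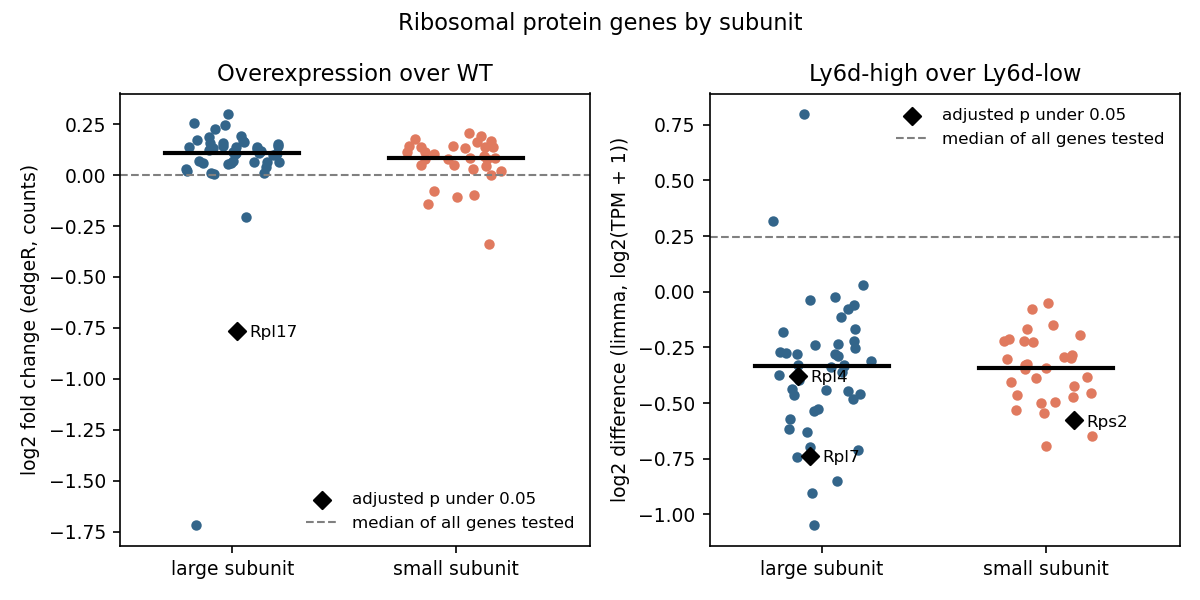
Each point is 1 of the 77 ribosomal protein genes tested; the vertical axes give the log2 fold change from edgeR (left) and the log2 difference on log2(TPM + 1) from limma (right). Black bars are medians, 0.11 and 0.09 on the left and -0.34 and -0.34 on the right; diamonds passed an adjusted p of 0.05 and the dashed line is the median of all genes tested, -0.00 on the left and 0.25 on the right.

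The largest positive value belonged to Rpl23a, also at the exit tunnel, at 480 and 514 CPM in overexpression against 457 and 342 CPM in WT cells. Both overexpression libraries were above both WT libraries, but the first WT library lay close to them, and the log2 fold change of 0.30 ± 0.11 did not pass (edgeR, adjusted p = 0.161). Rpl37 (448 and 467 CPM in overexpression, 439 and 318 CPM in WT) had 0.26 ± 0.11 (edgeR, adjusted p = 0.265). In both genes the gap between the WT libraries exceeded the gap between the groups' nearest libraries.

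Rpl13a, known in human cells for a role in translational silencing after interferon, was at 27.2 and 18.6 CPM in overexpression against 20.5 and 17.7 CPM in WT, and Rps28 at 350.2 and 420.4 CPM in overexpression against 374 and 286 CPM in WT. Rps14, a protein of the small subunit platform, was at 577 and 636 CPM in overexpression against 660 and 621 CPM in WT, and Rps27l at 60.8 and 53.6 CPM in overexpression against 67.1 and 57.5 CPM in WT. In all 4 genes the groups overlapped and the log2 fold change did not pass.

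Genes with a second role gave no call. Rpl5 was at 876 and 892 CPM in overexpression against 844 and 782 CPM in WT, a log2 fold change of 0.10 ± 0.07 (edgeR, adjusted p = 0.476). Rpl11 was at 547 and 534 CPM in overexpression against 521 and 429 CPM in WT, a log2 fold change of 0.17 ± 0.08 (edgeR, adjusted p = 0.318). Rps6, the substrate of S6 kinase, was at 660.1 and 688 CPM in overexpression against 684 and 571 CPM in WT, and the groups overlapped. Rpsa, also known as a laminin receptor, was at 1363 and 1484 CPM in overexpression against 1433 and 1327 CPM in WT cells. Rps3, which also acts in DNA repair, was at 930 and 952 CPM in overexpression against 957 and 876 CPM in WT. Rpl22 and its paralog Rpl22l1, which replace each other on the ribosome, had log2 fold changes of 0.12 ± 0.09 (edgeR, adjusted p = 0.549) and 0.19 ± 0.11 (edgeR, adjusted p = 0.449).

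Copies of the coding sequence, at 95% identity or more over 50% or more of its length, were found among annotated transcripts for 75 of the 80 genes, 571 copies in all, 547 of them annotated as pseudogenes. Rpl21 had the most, 56. Among the counts, 41 genes had under 5% of their pooled counts on copies, 25 had over 10% and 4 had over 50%. Those 4 were Rps10, Rpl24, Rpl17 and Rpl21. Rpl24 had 1 and 11 counts of its own in overexpression against 29 and 9 in WT, which gave the lowest log2 fold change of all, -1.72 ± 1.05 (edgeR, adjusted p = 0.450). The sources used here do not say how the authors assigned reads that match several places, so values of these 4 genes are uncertain. Rps10, Rpl24 and Rpl13a also overlap another annotated gene at their own place (RPS10-NUDT3, Gm28037 and Gm45713). How reads on such an overlap were counted is not stated either, so the low counts of Rpl13a are uncertain too. The part of the overlap in these counts was not tested. In the recovered reads of Ly6d-high and Ly6d-low cells the same 4 genes and Rpl23a had over 50% on copies.

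Rpl17 had 1701 and 1756 counts in overexpression against 3027 and 2353 in WT. Its copy Rpl17-ps10 (chr7:72648757-72649311, 99.3% identical) had 5672 and 6009 counts in overexpression against 4652 and 2731 in WT. Rpl17-ps10 was higher in both overexpression libraries, with a log2 fold change of 0.55 ± 0.13 (edgeR, adjusted p = 0.0327). Summed with its copies, Rpl17 stood at 549 and 599.9 CPM in overexpression against 569 and 469 CPM in WT, and the log2 fold change became 0.13 ± 0.09 (edgeR, adjusted p = 0.506). Over all 77 genes summed with their copies none was called, where 2.34% of all genes were called higher and 1.91% lower.

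Rps27 shares its whole coding sequence with Rps27rt (chr9:114982366-114982739), listed as a gene of its own and outside the name rule. The 252 bases are shown because they occur unchanged in both transcripts, here from Rps27 (GENCODE M21, GRCm38, chr3:90212522-90213651, minus strand).
Rps27: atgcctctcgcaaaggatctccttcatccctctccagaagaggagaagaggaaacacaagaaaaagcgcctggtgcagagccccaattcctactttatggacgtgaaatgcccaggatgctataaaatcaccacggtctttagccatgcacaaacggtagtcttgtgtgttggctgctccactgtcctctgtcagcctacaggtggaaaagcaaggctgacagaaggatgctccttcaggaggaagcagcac

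Rps27 had 2016 and 4231 counts in overexpression against 4636 and 2711 in WT, while Rps27rt had 4361 and 1549 in overexpression against 1161 and 632 in WT. The first overexpression library was the lowest for Rps27 and the highest for Rps27rt. Rps27rt was called higher, at a log2 fold change of 1.61 ± 0.35 (edgeR, adjusted p = 0.0264). Rps27 summed with its copies was at 349 and 322 CPM in overexpression against 320.2 and 217 CPM in WT. The sum was not called (log2 fold change 0.30 ± 0.13, edgeR, adjusted p = 0.254).

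Rps10 (chr17:27630418-27636669, minus strand), a protein of the small subunit head, had 98 and 43 counts in overexpression against 87 and 53 in WT. Its copy Rps10-ps2 (chr16:20822145-20822640, minus strand) had 4456 and 5111 counts in overexpression against 4825 and 2959 in WT, so 98.5% of the counts lay on copies. The copy matched 456 of the 507 coding bases with 4 substitutions, T393C, T408C, C437G and A438G, counted from the first base of the Rps10 coding sequence with the Rps10 base first. The 60 bases that hold all 4, from position 379, are shown with the differing bases in capitals.
Rps10: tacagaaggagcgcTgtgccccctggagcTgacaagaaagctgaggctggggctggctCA
Rps10-ps2: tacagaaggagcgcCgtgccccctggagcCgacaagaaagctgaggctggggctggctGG

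**Figure D3:**
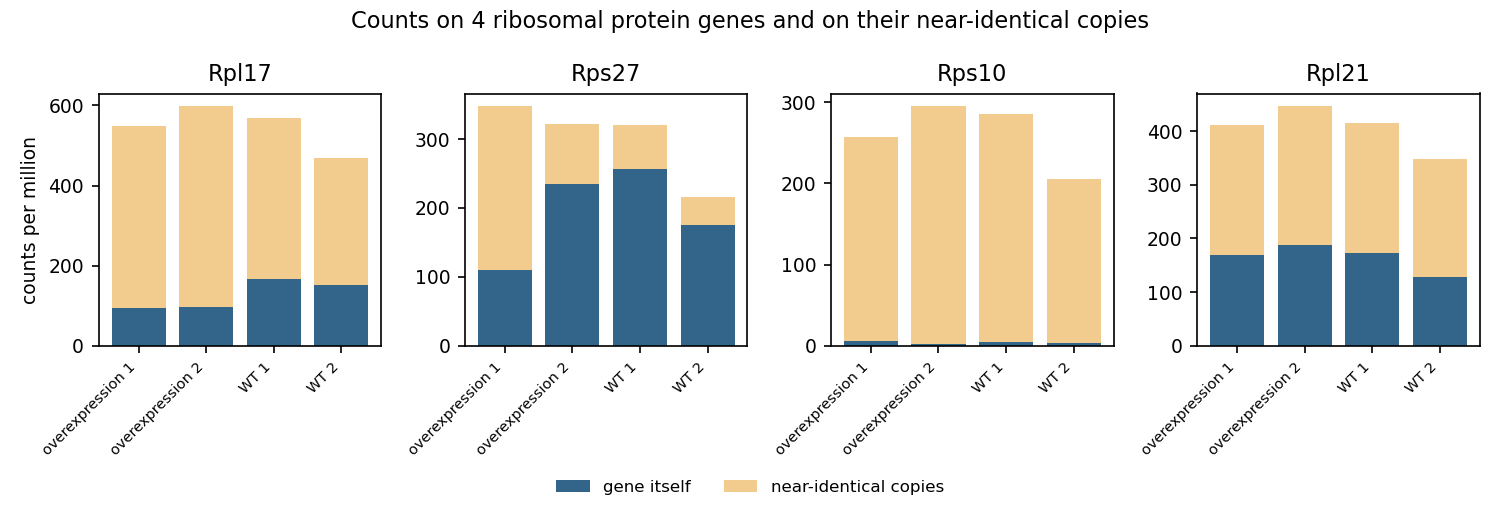
CPM on Rpl17, Rps27, Rps10 and Rpl21 (dark) and on their near-identical copies (light) in each overexpression and WT library. For Rpl17 and Rps27 the dark part differs more between libraries, relative to its height, than the sum, which is 549 and 599.9 CPM in overexpression against 569 and 469 CPM in WT for Rpl17.

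Rps27a, made as a fusion with ubiquitin, had 234 and 533 CPM in overexpression against 476 and 325 CPM in WT. The first overexpression library was lowest and the second highest, so the groups overlapped. With copies it stood at 262 and 556 CPM in overexpression against 494 and 354 CPM in WT. Rps27 and Rps27a were each called lower when the second overexpression library or the second WT library was left out, and Rps27 also with no filter on low counts.

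The sign of the family's difference depended on the WT library. Against the first WT library, the median log2 difference of the 77 genes was -0.04 in the first and 0.04 in the second overexpression library. Against the second WT library it was 0.19 and 0.29. The second WT library was below the first in 75 of the 77 genes, with a median log2 difference of -0.23, against -0.02 for all genes. The gap within WT exceeded the median difference between the groups.

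Without the first WT library, edgeR called 36 of the 77 genes higher and 1 lower, against 2.12% higher and 1.53% lower over all genes. Without the second WT library it called none higher and 3 lower, at backgrounds of 1.95% and 1.42%, and the median was -0.02 relative to all genes. Ribosomal RNA took 0.0934% and 0.0822% of counts in overexpression and 0.0480% and 0.919% in WT cells, the second WT library standing alone. That library also had 0.823% of its counts on Gm23935, annotated as a miRNA gene, where the first WT library had 0.0487%. The part of these differences in the ribosomal protein values was not tested.

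**Figure D4:**
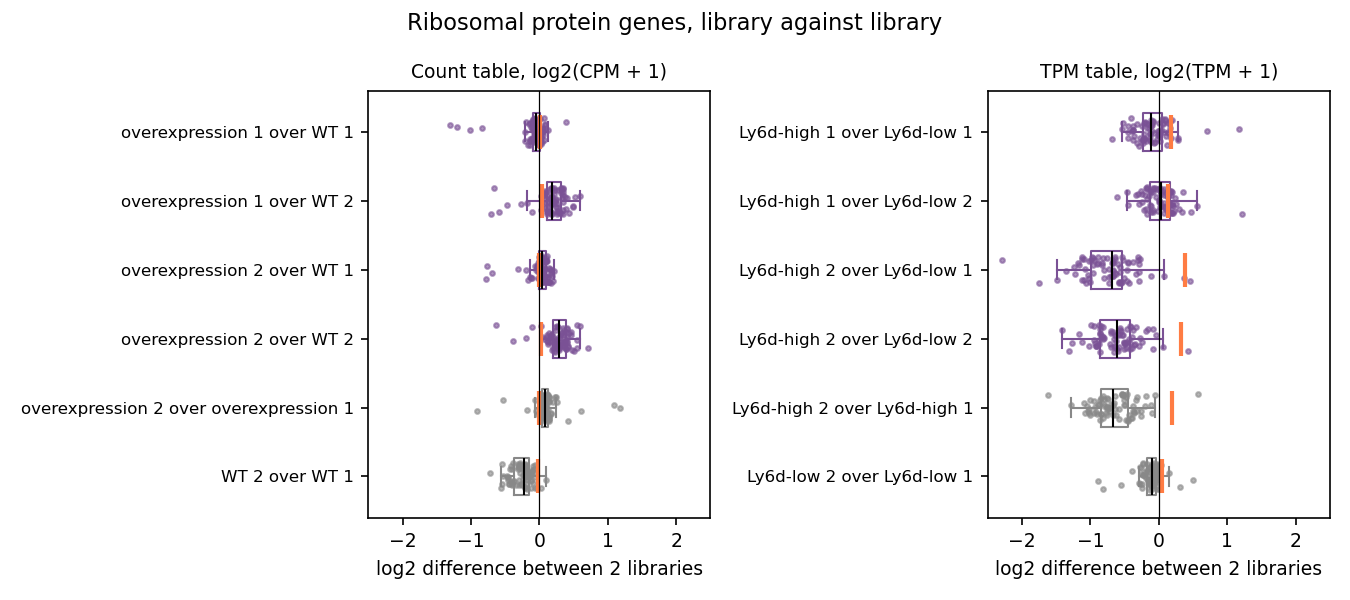
Log2 difference of each of the 77 ribosomal protein genes between pairs of libraries, on log2(CPM + 1) at left and log2(TPM + 1) at right; boxes give the median and quartiles, purple between groups, grey within a group, and the orange mark is the median of all genes tested. The grey boxes of WT (median -0.23) and Ly6d-high (median -0.67) lie farther from 0 than the purple boxes of the other library of the same group.

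In Ly6d-high cells the ribosomal protein genes lay lower than in Ly6d-low cells, while on TPM without further scaling most other genes lay higher. The log2 difference was below 0 in 74 of 77 and above 0 in 3, against 23.3% below and 76.7% above over all 14625 genes tested. The median was -0.34 on the log2(TPM + 1) scale, and -0.34 for large and -0.34 for small subunit genes apart, against 0.25 for all genes. The difference from all genes was -0.58. With TMM factors on TPM the median of all genes was 0.01 and that of ribosomal protein genes -0.61. The shares of all genes above 0 or apart higher given here thus depend on the scaling. Of the 77, limma called 3 lower and none higher (adjusted p under 0.05), while over all genes it called 1.17% lower and 8.64% higher. At an unadjusted p under 0.05 there were 20 lower and 1 higher, 21 of 77, against 30.8% of all genes.

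The groups did not overlap in 31 of the 77, 30 lower and 1 higher in Ly6d-high cells, where 10.4% of all genes stood apart lower and 54.4% higher. Of the 30, 20 encode large and 10 small subunit proteins. Among them were Rplp0, Rpl3, Rpl5, Rpl8, Rps6 and Rpsa.

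The 3 called genes are abundant. Rpl7, which binds ribosomal RNA in the large subunit, was at 717 and 513 TPM in Ly6d-high against 1031 and 994 TPM in Ly6d-low cells, a log2 difference of -0.74 ± 0.16 (SE; limma, adjusted p = 0.0319). Rps2 was at 1239 and 958 TPM in Ly6d-high against 1699 and 1558 TPM in Ly6d-low cells, a log2 difference of -0.58 ± 0.14 (limma, adjusted p = 0.0422). Rpl4, whose extension lines the exit tunnel, was at 1062 and 994 TPM in Ly6d-high against 1367 and 1304 TPM in Ly6d-low cells, a log2 difference of -0.38 ± 0.09 (limma, adjusted p = 0.0488). In each, both Ly6d-high libraries were below both Ly6d-low libraries and the second Ly6d-high library was the lowest. On recovered reads edgeR called these 3 and also Rpl3 and Rplp0 lower, and none higher, against 3.87% of all genes called lower and 8.01% higher. DESeq2 on these reads called 21 lower and none higher, against 2.31% and 3.58% of all genes. All 3 limma calls were lost with no filter on low values, with TMM factors on TPM and without the first Ly6d-low library, and those of Rps2 and Rpl4 also with a pseudocount of 0.1 and without the second Ly6d-low library.

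Several genes had larger differences and did not pass. Rpl23a was at 69.8 and 39.2 TPM in Ly6d-high against 102 and 95.8 TPM in Ly6d-low cells, a log2 difference of -0.90 ± 0.25 (limma, adjusted p = 0.0680). Copies held 65.5% of its reads in this table, and summed with them its log2 fold change was -1.01 ± 0.29 (edgeR, adjusted p = 0.0654). It was thus among the most negative here and the most positive in the overexpression comparison. Rpl7a was at 54.0 and 17.0 TPM in Ly6d-high against 87.3 and 46.9 TPM in Ly6d-low cells, a log2 difference of -1.05 ± 0.51 (limma, adjusted p = 0.208). The first Ly6d-high library lay between the Ly6d-low libraries, so the groups overlapped, and the gap within each group was the widest of the genes compared by length. Rpl30 was at 36.3 and 16.5 TPM in Ly6d-high against 48.0 and 42.3 TPM in Ly6d-low cells, Rpl37a at 112 and 58.4 TPM in Ly6d-high against 139 and 133 TPM in Ly6d-low cells, and Rpl19 at 819 and 481 TPM in Ly6d-high against 1123 and 924 TPM in Ly6d-low cells. In these 3 genes the groups did not overlap and the second Ly6d-high library was far the lowest. Rps28, a protein near the mRNA exit, was at 14.7 and 5.44 TPM in Ly6d-high against 20.6 and 11.3 TPM in Ly6d-low cells, also overlapping.

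Among genes with a second role or a stalk position, Rplp0 had a log2 difference of -0.34 ± 0.09 (limma, adjusted p = 0.0663) and Rplp1 of -0.17 ± 0.25 (limma, adjusted p = 0.665). Rplp2 was at 86.9 and 54.1 TPM in Ly6d-high against 86.5 and 86.9 TPM in Ly6d-low cells. The first Ly6d-high library of Rplp2 equalled the Ly6d-low libraries and the second stood alone. Rpl11 was at 82.5 and 40.3 TPM in Ly6d-high against 86.5 and 73.7 TPM in Ly6d-low cells, with the first Ly6d-high library between the Ly6d-low libraries and the second alone below. Rps6 was at 597 and 419 TPM in Ly6d-high against 696 and 633 TPM in Ly6d-low cells, with both Ly6d-high libraries lower (log2 difference -0.41 ± 0.17, limma, adjusted p = 0.159).

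Rpl21 was the only gene of the 77 whose libraries stood apart higher in Ly6d-high cells, at 36.6 and 20.7 TPM in Ly6d-high against 15.7 and 15.1 TPM in Ly6d-low cells. Its log2 difference of 0.80 ± 0.26 did not pass (limma, adjusted p = 0.0982). Summed with its 56 copies it stood at 199 and 164 CPM of recovered reads in Ly6d-high against 185 and 167 CPM in Ly6d-low cells, and the groups overlapped (log2 fold change -0.16 ± 0.15, edgeR, adjusted p = 0.495). All copies together had 3084 and 2541 reads in Ly6d-high against 2459 and 2827 in Ly6d-low cells. Of these, 2259 and 2091 against 1614 and 1865 lay on BC004004, annotated as protein-coding (chr17:29268788-29302881). The sum thus largely gives the level of BC004004.

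Genes with a log2 difference close to 0 also had overlapping groups. Rpl28 was at 105 and 70.0 TPM in Ly6d-high against 86.1 and 88.2 TPM in Ly6d-low cells, and Rpl29 at 316 and 246 TPM in Ly6d-high against 299 and 273 TPM in Ly6d-low cells. Rpl10 was at 465 and 390 TPM in Ly6d-high against 422 and 412 TPM in Ly6d-low cells. In these 3 genes the first Ly6d-high library was the highest and the second the lowest.

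The paralogs Rps27 and Rps27l were low in the same library. Rps27 was at 87.4 and 43.3 TPM in Ly6d-high against 99.5 and 81.7 TPM in Ly6d-low cells, and Rps27l, which p53 activates, was at 214 and 130.5 TPM in Ly6d-high against 194 and 194 TPM in Ly6d-low cells. Both had their lowest value in the second Ly6d-high library.

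The second Ly6d-high library carried most of the difference. It was below the first in 76 of the 77 genes, with a median log2 difference of -0.67, against 0.19 for all genes. The gap was over 1 in 9 genes. Between the first Ly6d-high library and the Ly6d-low libraries the median was -0.11 and 0.03, and between the second and the Ly6d-low libraries -0.68 and -0.61. The large and small subunit medians of that last pair of values were -0.66 and -0.73 against the first and -0.56 and -0.62 against the second Ly6d-low library.

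Without the second Ly6d-high library, limma called 7 of the 77 genes lower and 1 higher, with 2.72% and 9.12% over all genes, and the median relative to all genes was -0.18. The 7 included Rpl7, Rps2 and Rpl4. Without the first Ly6d-high library it called 71 lower and 1 higher, at backgrounds of 8.15% and 41.1%, and the median relative to all genes was -0.98. Without the first Ly6d-low library it called none in either direction, and with 1 library left in a group that library was assumed to vary like the others. The first and second Ly6d-high libraries differed in some marker sums, 82.2 and 48.8 TPM for the 5 erythroid genes, 85.9 and 114 TPM for the 6 endothelial genes and 571 and 658 TPM for the 8 fibroblast genes, and less in the acinar and macrophage sums given above. The part of these cells in the gap between the 2 libraries was not tested. Mitochondrially encoded genes took 1.01% and 0.874% of reads in Ly6d-high and 1.67% and 1.67% in Ly6d-low cells.

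Among ribosomal protein genes, the gaps within WT and within Ly6d-high moved with coding length. The 72 ribosomal protein genes with a length and at least 10 CPM in both tables had coding sequences of 138 to 1257 bases, with a median of 454.5, against 1356 in 8227 other genes. Among the 72, Spearman's rho between coding length and the gap of the second over the first library was -0.05 in overexpression and 0.61 in WT, and 0.65 in Ly6d-high and 0.15 in Ly6d-low cells. Among the 8227 other genes it was -0.13 in overexpression and 0.28 in WT, and 0.52 in Ly6d-high and 0.29 in Ly6d-low cells. All points of a group share its 2 libraries.

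In Ly6d-high cells the 7 ribosomal protein genes of up to 300 coding bases had a median log2 gap of -1.04 and the 18 of over 600 and up to 900 bases one of -0.53. In WT cells the medians of the same bins were -0.46 and -0.15. The shortest genes were thus the lowest in the second Ly6d-high and the second WT library. Other genes showed the same order, at -0.48 for the 141 of up to 300 bases and -0.01 for the 1197 of over 600 and up to 900 bases in Ly6d-high cells. At equal length the ribosomal protein genes lay below them. In WT cells the other genes of these bins had -0.18 and -0.07.

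Between groups, Spearman's rho with coding length among the 72 genes was -0.14 for Ly6d-high over Ly6d-low and -0.14 for overexpression over WT, against 0.31 and 0.02 among the 8227 other genes. For Ly6d-high over Ly6d-low, the median log2 difference of other genes was -0.14 up to 300 coding bases, -0.08 in the next bin up to 450 bases, and 0.26 over 1500 bases. The 27 ribosomal protein genes of the bin up to 450 bases had -0.33. Those of up to 300 bases had -0.37. From over 450 to 600 bases they had -0.44, against 0.01 for other genes. From over 600 to 900 bases they had -0.38 against 0.09, and from over 900 to 1500 bases -0.43 against 0.18. Ribosomal protein genes thus lay below other genes in every bin that held both. These values are log2 differences in CPM among genes of at least 10 CPM. The -0.58 from all genes is on log2(TPM + 1) and over more genes, so the distances were not compared with it. The part of length in the library gaps was not tested further.

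**Figure D5:**
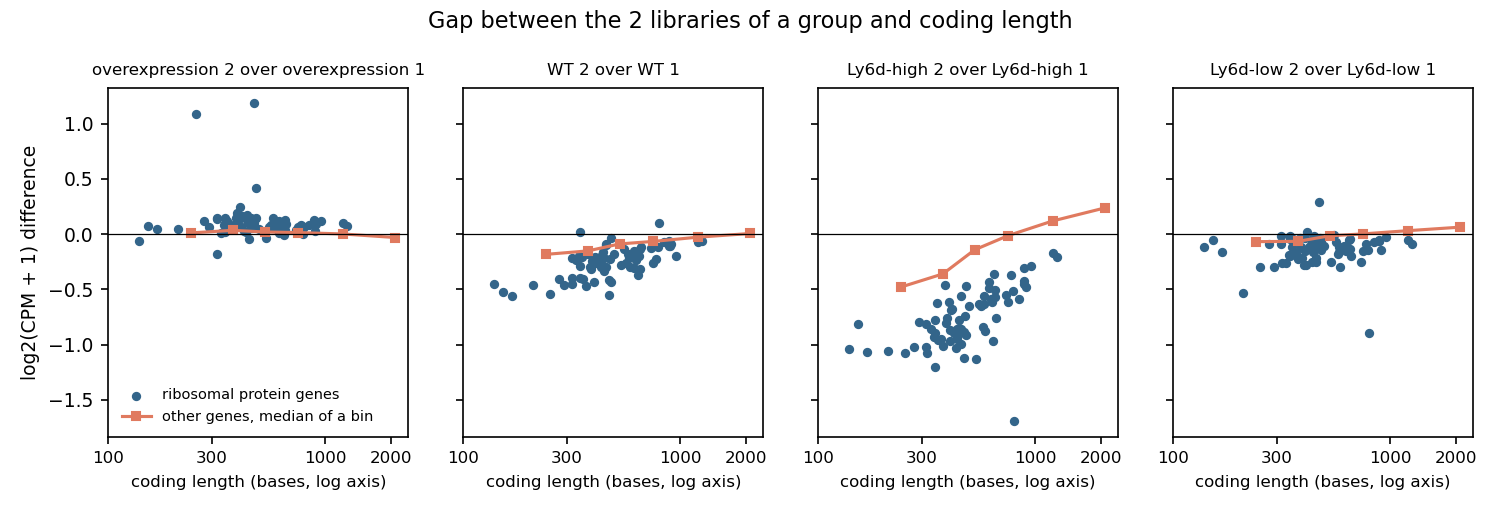
Log2 difference in CPM between the 2 libraries of each group against coding length (log axis) for 72 ribosomal protein genes (points) and for other genes (squares, medians of length bins). In WT and Ly6d-high the points climb with length (Spearman's rho 0.61 and 0.65), and in overexpression and Ly6d-low they stay flat (-0.05 and 0.15).

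The 2 comparisons share no library. Over the 77 genes, the log2 fold change in overexpression and the log2 difference in Ly6d-high cells had a Spearman's rho of -0.10.

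Another list held 11 genes that the name rule misses, genes of the ribosome and Rps19bp1, named for binding Rps19. Of the 11, 1 was called higher in overexpression (Rps27rt, above, not called by DESeq2) and 1 lower in Ly6d-high cells. Over all genes 2.32% were called higher in overexpression and 1.17% lower in Ly6d-high cells. The gene called lower, Rps3a1, was at 1738 and 1289 TPM in Ly6d-high against 2386 and 2264 TPM in Ly6d-low cells, a log2 difference of -0.63 ± 0.14 (limma, adjusted p = 0.0374). Fau, made as a fusion with a ubiquitin-like protein, was at 494 and 282 TPM in Ly6d-high against 594 and 541 TPM in Ly6d-low cells and did not pass (limma, adjusted p = 0.145).

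The other TOP mRNAs of translation, 28 factors such as elongation and initiation factors, had a median log2 difference of -0.13 in Ly6d-high cells, against 0.25 for all genes, and 3 were called lower and 1 higher, against 1.17% and 8.64% of all genes. On recovered reads edgeR called 8 lower and 0 higher, against 3.87% and 8.01% of all genes. Eef1a1, which brings aminoacyl-tRNA to the ribosome, was at 2562 and 2519 TPM in Ly6d-high against 3212 and 3190 TPM in Ly6d-low cells (log2 difference -0.33 ± 0.08, limma, adjusted p = 0.0417). Its 2 Ly6d-high libraries lay close together, where the median gap of the 77 ribosomal protein genes was -0.67 on the log2 scale. Npm1, a nucleolar chaperone, and Ybx1, an mRNA-binding protein, were lower (log2 differences -0.49 ± 0.11 and -0.51 ± 0.10, limma, adjusted p = 0.0361 and 0.0258), and the initiation factor subunit Eif3f was higher (0.65 ± 0.16, limma, adjusted p = 0.0488). In overexpression only Eef1e1, a part of the tRNA synthetase complex, was called, and lower (-0.84 ± 0.18, edgeR, adjusted p = 0.0256), against 1.84% of all genes. The edgeR median was 0.04. DESeq2 called 1 lower and 3 higher, and its share over all genes is not given here.

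Of 18 tested regulators of TOP mRNA translation, Mtor was called higher in overexpression, at 74.7 and 78.0 CPM in overexpression against 56.8 and 58.5 CPM in WT (log2 fold change 0.39 ± 0.09, edgeR, adjusted p = 0.0390). Akt1s1, which encodes an inhibitory subunit of mTOR complex, was called higher in Ly6d-high cells, at 81.4 and 93.4 TPM in Ly6d-high against 56.8 and 57.3 TPM in Ly6d-low cells (log2 difference 0.60 ± 0.14, limma, adjusted p = 0.0386). Neither call was made by the other tool, DESeq2 on the counts and edgeR on the recovered reads. Over all genes 2.32% were called higher in overexpression and 8.64% in Ly6d-high cells, so 1 call among 18 is not read as a result about the list. Larp1 was at 227 and 211 CPM in overexpression against 244 and 244 CPM in WT, and did not pass (edgeR, adjusted p = 0.208).

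Of 14 chaperones and importers of ribosomal proteins none was called in either comparison, nor by DESeq2 on the counts or edgeR on the recovered reads, and 3 were lower in overexpression at an unadjusted p under 0.05 and 0 changed at that level in Ly6d-high cells. In overexpression 13 had a log2 fold change below 0, with a median of -0.14, and in Ly6d-high cells all 14 had one above 0, with a median of 0.23 against 0.25 for all genes. Of the 77 mitochondrial ribosomal protein genes tested, none was called in overexpression (also none by DESeq2, and 5 lower at an unadjusted p under 0.05). In Ly6d-high cells Mrpl4 alone was called, and higher, at 51.1 and 49.7 TPM in Ly6d-high against 34.1 and 30.9 TPM in Ly6d-low cells (limma, adjusted p = 0.0386). Over all genes limma called 8.64% higher. On recovered reads edgeR called 0 of the mitochondrial ribosomal protein genes higher and 5 lower, against 8.01% and 3.87% of all genes. The median log2 difference of the mitochondrial ribosomal protein genes in Ly6d-high cells was -0.04, against -0.34 for the cytosolic genes. Of the long RNAs that host snoRNAs, whose transcripts also start in pyrimidine runs, Snhg18 was called higher in Ly6d-high cells, at 7.80 and 10.3 TPM in Ly6d-high against 1.56 and 1.497 TPM in Ly6d-low cells (log2 difference 1.98 ± 0.21, limma, adjusted p = 0.00152). It was the only call among 13 tested, where 8.64% of all genes were called higher, and 10 of the 13 lay below 0.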

How the data were processed

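The submitters' processing notes name fastp, HISAT2, featureCounts and DESeq2 with no version, and mm9 as the build. The coordinates in the deposited tables equal those of GENCODE M21 on GRCm38 for 98.3% of 54409 matched genes, so they are given as GRCm38. The deposited table of sorted overexpression and WT cells holds raw counts per gene. For Ly6d-high and Ly6d-low cells the deposited values are TPM, computed by the authors over the gene model length deposited beside each gene. Left unused were 2 count columns whose names match no sample's labels, and the tissue samples were not analysed here. The sources used here do not say whether counting used strand.

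For counts, edgeR 4.0.16 ran in R 4.3.3 (filterByExpr, TMM, quasi-likelihood test), and TPM were tested with limma 3.58.1 (trend) on log2(TPM + 1), that is with a pseudocount of 1, keeping genes that reached 1 TPM in 2 or more libraries. Differences on that scale understate the change of low genes. Benjamini-Hochberg adjustment ran over all genes tested, and the adjusted p had to lie under 0.05. TPM times length came out as whole reads (100% of values within 0.1 reads), which DESeq2 1.42.0 and edgeR tested as alternatives. On simulated data, edgeR was tried with counts and limma with CPM in place of TPM. DESeq2 was not tried there, and the outcomes are not given here. The totals were 18290325 and 18001470 counts for overexpression, 18108850 and 15449241 for WT, with recovered totals of 20509539 and 18362419 reads in Ly6d-high and 15063975 and 19322028 reads in Ly6d-low cells. Copies were found with BLAST 2.17.0 (95% identity over 50% of the coding sequence), and summing members with them was an alternative chosen after seeing the data. Values per gene model kilobase are CPM divided by length.

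The genes and lists were chosen with earlier results of these data known. Genes named are the 6 of highest level, the 5 largest and 5 smallest fold changes in each comparison and the 2 largest gaps between libraries of each group (both at a mean of 10 TPM or more), those with a second role or a paralog, those under 1 TPM, and up to 4 of lowest p per other list. Members outside this rule (Rpl4, Rpl24, Rps10 and others that passed a test or stood apart) and the copies were added after their values were seen. No protein sequences were used here, and the values of 1 gene that the rule names are not reported here.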

Additional observations from a re-analysis of the deposited data

How the results depend on the processing

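Leaving out 1 library at a time moved the count of ribosomal protein genes called higher in overexpression over 0 to 36 and the count called lower over 1 to 3. In Ly6d-high cells those counts ran over 0 to 1 and 0 to 71. With no filter on low counts, 2 genes were higher and 2 lower in overexpression, and the share of all genes called there is not given. Summed with their copies, none was lower in overexpression, and Rpl17 turned to a log2 fold change of 0.13. In Ly6d-high cells, the count called lower was 1 with a pseudocount of 0.1, 0 with no filter, 0 with TMM factors on TPM with or without these genes in them, 5 with edgeR on recovered reads, 6 with edgeR on reads summed with copies and 21 with DESeq2. The medians relative to all genes kept their sign in Ly6d-high cells (-0.98 to -0.18) and turned in overexpression without the second WT library (-0.02). TMM factors brought the median of all genes to 0.01, against 0.25 without them, and that of ribosomal protein genes to -0.61. With the listed genes outside the name rule (Rps19bp1 included) the mean share became 5.24% in overexpression and 1.94% in Ly6d-low cells, and with copies 5.33% and 1.88%.

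With the replicate number as a block, limma called 39 lower and 1 higher in Ly6d-high cells, against 3 and 0 without it. The share of all genes called with the block is not given here, so these counts cannot be read as particular to ribosomal protein genes. Over 14625 genes same-numbered libraries did not deviate together (correlation 0.07). Over the 77 ribosomal protein genes, the gaps within Ly6d-low and within Ly6d-high had a Pearson correlation of 0.53 and a Spearman's rho of 0.33. Neither value can settle whether same-numbered libraries share a tumour or a batch, which the labels do not give. No paired analysis was possible because the overexpression columns could not be matched to single samples, for overexpression against WT. The cause of each change was not tested. Near-identical copies and 2 libraries a group limit what a single gene's value shows, and intervals of counting error were not given for shares.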
